A study of Mus musculus with 29 samples.

Results

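The 45 genes described here are cell cycle genes of the mouse colon: 18 act in DNA replication and 27 in mitosis. They were chosen by name, and each was read from the probe set of the array whose annotation gives that gene alone, the brightest where there was more than 1. They are 45 of the 19938 genes that have such a probe set. Of the 45, 43 had a mean above the median of all probe sets, 6.07 on the log2 scale.

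The study gave mice dextran sodium sulphate (DSS), which damages the colonic epithelium and causes colitis, in the drinking water, and compared colon tissue after a single exposure, after repeated cycles and after healing. All mice were female C57BL6J mice with an age label of 6 weeks, and the study matched their ages at sacrifice. RNA came from the most infiltrated part of the colon, with 1 Affymetrix Mouse Gene ST array for each mouse. The 5 control mice (arrays A1, A2, A5, L1 and L2) drank normal water, and the 4 mice with acute colitis (B2, B3, B4 and C3) were killed directly after 7 days of DSS. The 1-cycle group (J1, J5, K1, K2 and K3) had 7 days of DSS and then 2 weeks of recovery, and the 2-cycle group (D4, D5, E2, E3 and E4) and 3-cycle group (F1, F3, F5, G2 and G3) repeated such cycles, with more DSS in the later cycles than in the opening one. The recovery group (M1, M3, M5, N2 and N3) had 2 cycles and then 3 additional weeks without DSS. Values of a group are given below in these orders. A further array of acute colitis that the study describes was not analysed here.

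A dividing cell copies its DNA once and then shares the copies between its daughters. Before S phase, Cdc6 and Cdt1 load the Mcm helicase on replication origins, cyclin E and E2F factors start the S phase genes, and ribonucleotide reductase supplies the DNA building blocks. Mitosis follows under Cdk1 with its cyclins, Plk1 and the Aurora kinases, while kinetochore proteins attach chromosomes to the spindle and motor proteins divide the cell. In the healthy colon most dividing cells are transit amplifying cells of the lower crypt. After injury, epithelium, immune cells and stroma can all divide. Many mitosis genes carry the letters TTTGAA (the cell cycle genes homology region, bound by DREAM and MuvB complexes) and CCAAT (bound by NF-Y) near their start, while many S phase genes carry E2F letters.

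The promoters below show both kinds of letters between them, although that of Rrm2 shows CCAAT alone, and were chosen after the values were seen. They are the 150 bases before the start of 4 mitosis genes and 3 replication genes in RefSeq, build GRCm38.p6, printed from 5′ to 3′ on the strand of the gene. Capitals mark TTTGAA with its variant TTCGAA, the letters CCAAT, and 4 forms of the E2F letters, on either strand, and capitals run together where 2 matches overlap. The E2F forms are TTTGGCGC, then TTTCCCGC, then TTTGCCGC and lastly TTTCGCGC.
Cdk1, chr10:69352913-69353062, minus strand: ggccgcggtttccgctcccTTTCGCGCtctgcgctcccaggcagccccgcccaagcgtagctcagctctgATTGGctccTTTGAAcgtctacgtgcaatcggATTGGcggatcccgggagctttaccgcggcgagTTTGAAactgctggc
Cdc20, chr4:118437344-118437493, minus strand: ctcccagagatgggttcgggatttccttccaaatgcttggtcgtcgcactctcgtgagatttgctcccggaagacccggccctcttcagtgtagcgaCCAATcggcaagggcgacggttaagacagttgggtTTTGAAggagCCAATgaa
Top2a, chr11:99024190-99024339, minus strand: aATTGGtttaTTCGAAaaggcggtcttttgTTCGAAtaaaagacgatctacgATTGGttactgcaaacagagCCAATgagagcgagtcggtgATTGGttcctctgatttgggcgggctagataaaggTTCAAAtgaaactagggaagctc
Mki67, chr7:135716380-135716529, minus strand: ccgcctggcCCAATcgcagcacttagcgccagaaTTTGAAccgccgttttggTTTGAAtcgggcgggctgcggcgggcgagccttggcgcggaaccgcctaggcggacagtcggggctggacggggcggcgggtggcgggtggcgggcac
Mcm6, chr1:128359706-128359855, minus strand: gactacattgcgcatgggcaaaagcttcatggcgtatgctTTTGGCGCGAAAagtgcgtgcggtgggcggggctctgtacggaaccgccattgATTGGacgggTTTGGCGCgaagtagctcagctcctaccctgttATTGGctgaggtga
Cdc6, chr11:98908001-98908150, plus strand: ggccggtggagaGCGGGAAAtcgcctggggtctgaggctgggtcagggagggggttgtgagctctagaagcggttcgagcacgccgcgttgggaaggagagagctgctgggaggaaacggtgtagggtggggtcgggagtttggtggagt
Rrm2, chr12:24708104-24708253, plus strand: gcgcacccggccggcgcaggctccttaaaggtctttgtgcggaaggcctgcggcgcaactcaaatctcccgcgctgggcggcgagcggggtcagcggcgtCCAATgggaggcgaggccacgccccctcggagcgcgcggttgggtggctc

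The table of promoters held 37 of the 45 genes, 15 of replication and 22 of mitosis, each as a window from 250 bases before the start to 50 after it. TTTGAA stood in the window of 16 of the 22 mitosis genes (72.7%) and of 2 of the 15 replication genes (13.3%), against 20.2% of all 27025 genes of the table. CCAAT stood in 16 mitosis genes (72.7%) and 9 replication genes (60%), against 41.1% of all genes. The E2F letters stood in 6 replication genes (40%) and 1 mitosis gene (4.55%), against 2.6% of all genes, and TTCGAA in 4 of the 37 (10.8%), against 1.8%. The mitosis windows therefore held TTTGAA and the replication windows the E2F letters more often than windows at large. A match describes the letters of the window and is no proof of a bound site.

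Values are log2 expression levels, so that a difference of 1 is a fold of 2, and levels are compared between arrays and not between genes. Array medians lay between 6.02 and 6.14. The epithelial markers Cdx2 (at least 8.03 on each of the 29 arrays), Krt20 (10.95 to 12.03) and Car1 (11.75 to 13.42) were well above the median probe set on all arrays. Krt5, a keratin of squamous epithelium, reached 10.91 in the 3-cycle group and 12.15 in the recovery group against at most 6.10 in controls and acute colitis. The arrays also fell into 2 sets by 1 probe set with no gene in the annotation used here, which lay at 8.14 or below on 14 arrays and at 11.09 or above on 15. The low set held all control and all 1-cycle arrays with B2, B3, D4 and D5, and the high set held B4, C3, E2, E3, E4 and all arrays of the 3-cycle and recovery groups. Acute colitis and 2 cycles are therefore the groups that span both sets, and for the other groups the set and the group cannot be told apart.

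Each gene was tested with limma in 1 fit of all 6 groups, with Benjamini-Hochberg adjustment over all 35511 probe sets, and a gene is said to have risen or fallen where its adjusted p was under 0.05. Over the 6 groups, 30 of the 45 genes differed by the moderated F test, against 25% of all probe sets. The 15 genes given array by array below are Mki67 and, of each class, the pair of smallest p by this test.

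In acute colitis 29 of the 45 genes rose against controls, and 0 fell (limma, adjusted p under 0.05). Of all probe sets 11.4% rose and 11.6% fell. Mitosis genes rose in 20 of 27 cases and replication genes in 9 of 18. All 45 log2 fold changes were above 0, from 0.06 for Nusap1 to 1.27 for Rrm2, with a median of 0.56 against 0.04 over all probe sets. The median was 0.62 for mitosis genes and 0.41 for replication genes. Only Rrm2 also passed a fold of 2, a limit that 1.38% of all probe sets passed with a rise. In whole tissue a higher level may come, among other sources, from more dividing cells or from more RNA in each of them. These cannot be told apart, and cell type markers that moved in the same arrays are given below.

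**Figure D1:**
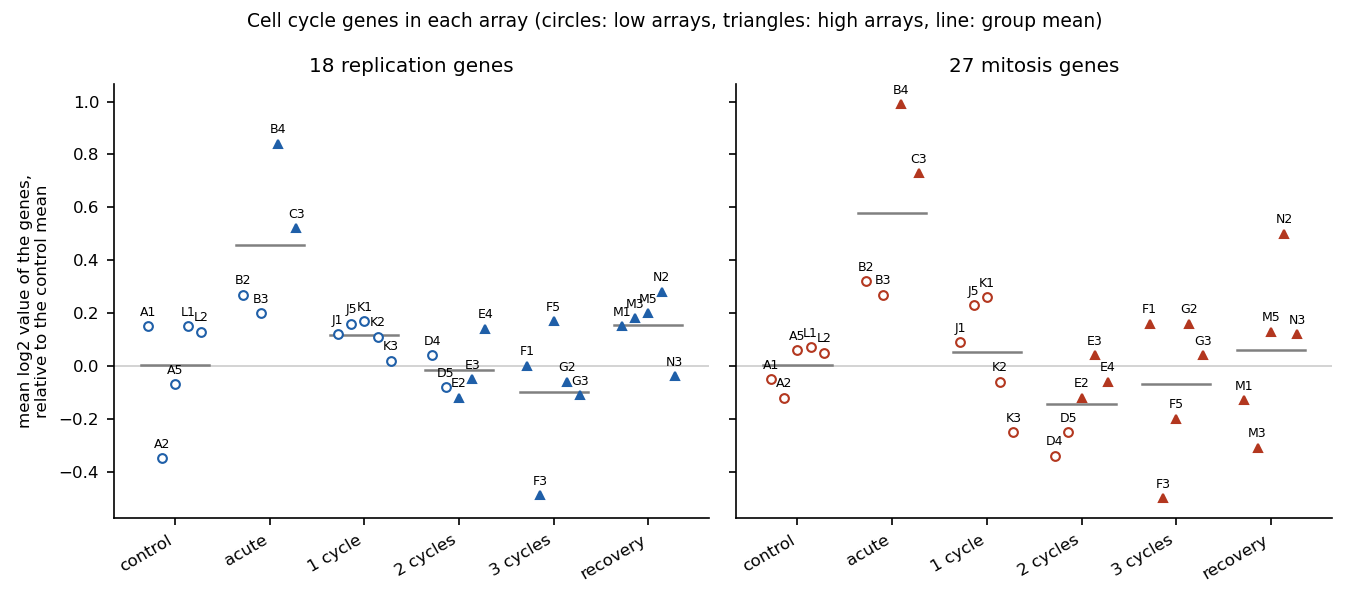
Mean log2 difference of the 18 replication genes and of the 27 mitosis genes from their control means (y axis), for each of the 29 arrays by group (x axis). Circles are arrays of the low set, triangles arrays of the high set and lines group means. Arrays B4 and C3 lie highest, and F3 lies lowest.

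The mean of the 45 genes over the control mean was 0.30 in B2, 0.24 in B3, 0.93 in B4 and 0.65 in C3, against -0.22 to 0.10 in the 5 controls. All acute arrays lay above all controls, and the pair in the high set lay above the pair in the low set. B4 was the highest of all 29 arrays for 38 genes and C3 for 5. The number of genes above every control was 32 in B2, 24 in B3, 44 in B4 and 42 in C3. It was also 38 in N2 of the recovery group, and 32 in K1 and 28 in J5 of the 1-cycle group. The means in N2, K1 and J5 were 0.41, 0.23 and 0.20, so that N2 lay above B2 and B3. No share of all probe sets was computed for these counts by array.

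Origin licensing and helicase genes rose in 5 of 10 cases. The strongest was Gins1, a subunit of the GINS complex that joins the Mcm helicase at the fork, with 5.26, 4.91, 5.04, 4.99 and 4.96 in controls and 5.80, 5.44, 6.09 and 6.13 in acute colitis. All acute arrays lay above all controls, and B3 came nearest to them. The log2 fold change was 0.83 (SE 0.127, limma adjusted p = 2.46e-05), a fold of 1.78. Cdc6, the loader of the helicase, had 6.17, 5.70, 6.02, 6.30 and 6.12 in controls and 6.50, 6.43, 6.92 and 6.93 in acute colitis. The groups did not overlap, although B3 lay close to the highest control. Its log2 fold change was 0.63 (SE 0.131, adjusted p = 0.000771). Among the helicase subunits Mcm3 (0.65, adjusted p = 0.00205), Mcm4 (0.44, adjusted p = 0.0273) and Mcm6 (0.44, adjusted p = 0.0261) rose, while Mcm7 (0.46, adjusted p = 0.0524), Mcm2 (0.34) and Mcm5 (0.27) did not pass the test. The GINS subunit Gins2 (0.26, adjusted p = 0.0865) and the licensing factor Cdt1 (0.13, adjusted p = 0.551) did not pass it either.

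The largest rise of a single gene was that of Rrm2, in nucleotide supply, although the median of this class, 0.46, was below those of the 4 mitosis classes (0.51 to 0.73). Rrm2, the small subunit of ribonucleotide reductase, had 7.66, 7.28, 7.39, 7.65 and 7.72 in controls and 8.21, 8.83, 9.40 and 8.81 in acute colitis. Every acute array exceeded every control, B2 by the least and B4 by the most. Its log2 fold change was 1.27 (SE 0.174, adjusted p = 6.28e-06), a fold of 2.41. Rrm1, the large subunit of the same enzyme, had 8.60, 8.0, 8.61, 8.59 and 8.65 in controls and 8.79, 8.78, 9.63 and 9.11 in acute colitis. The acute arrays were above all controls, but B2 and B3 only narrowly, and the control A2 was far below the others. Its log2 fold change was 0.59 (SE 0.167, adjusted p = 0.011). Tyms, which makes thymidylate, rose by 0.33 (adjusted p = 0.0451), and Pcna, the sliding clamp of the DNA polymerases, had 0.16 (adjusted p = 0.314).

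Among the genes of the step from G1 to S only Ccne1 passed the test. Ccne1, cyclin E1, had 7.07, 6.64, 6.69, 7.07 and 7.28 in controls and 7.52, 7.58, 8.08 and 7.64 in acute colitis. The groups did not overlap, and B4 stood above the other acute arrays. This gave a log2 fold change of 0.75 (SE 0.123, adjusted p = 5.42e-05). E2f8, a repressor of the E2F family, had 8.04, 7.57, 7.92, 8.13 and 8.15 in controls and 8.26, 8.08, 8.50 and 8.55 in acute colitis. B3 lay within the range of the controls. The log2 fold change of 0.39 (SE 0.161) did not pass the test (adjusted p = 0.0879), nor did those of the activator E2f1 (0.19) and the checkpoint kinase Chek1 (0.13).

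All 7 genes of mitotic entry rose. Aurka, the Aurora kinase of the spindle poles, had 7.27, 7.25, 7.39, 7.49 and 7.47 in controls and 7.91, 7.95, 8.87 and 8.33 in acute colitis. The acute arrays lay above all controls, with B4 highest. On the log2 scale the rise was 0.89 (SE 0.149, adjusted p = 7.16e-05). Cdk1, the kinase that drives entry into mitosis and whose promoter carries TTTGAA and CCAAT above, had 7.54, 7.50, 7.67, 7.72 and 7.78 in controls and 8.04, 8.09, 8.79 and 8.39 in acute colitis. B2 and B3 lay moderately above the highest control and B4 far above it. The log2 fold change was 0.68 (SE 0.16, adjusted p = 0.00231). Plk1, the polo kinase of mitotic entry and exit, rose by 0.94 (adjusted p = 0.00158). The cyclins of Cdk1, Ccna2 (0.67) and Ccnb2 (0.56), rose with the transcription factor Foxm1 (0.61), which turns on late cell cycle genes, and the kinase Melk (0.54), with adjusted p between 0.0093 and 0.0308.

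Chromosome and passenger complex genes rose in 3 of 4 cases. Birc5, survivin, a subunit of the chromosomal passenger complex, had 6.34, 6.18, 6.27, 6.21 and 6.39 in controls and 6.85, 6.99, 7.54 and 7.37 in acute colitis. The groups were well apart. This gave a log2 fold change of 0.91 (SE 0.127, adjusted p = 8.1e-06). Top2a, the topoisomerase that untangles sister chromosomes, had 8.42, 8.31, 8.61, 8.56 and 8.61 in controls and 9.05, 9.21, 9.55 and 9.37 in acute colitis. The groups did not overlap, and B2 was the nearest to the controls. On the log2 scale the rise was 0.79 (SE 0.155, adjusted p = 0.000419). A second, dim probe set of Top2a, with a control mean of 3.91, showed no rise (-0.02, limma adjusted p = 0.941). Probe sets annotated to both Top2a and Hibadh gave -0.17 and -0.27 and did not pass the test. Aurkb, the kinase of the passenger complex, rose by 0.66 (adjusted p = 0.00714). Mki67, the gene of the proliferation marker Ki-67, had 9.43, 9.25, 9.43, 9.48 and 9.46 in controls and 9.51, 9.45, 10.05 and 9.85 in acute colitis. B4 and C3 stood above the controls, but B3 lay among them and B2 just above them. Its log2 fold change of 0.31 (SE 0.156) did not pass the test (adjusted p = 0.172).

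**Figure D2:**
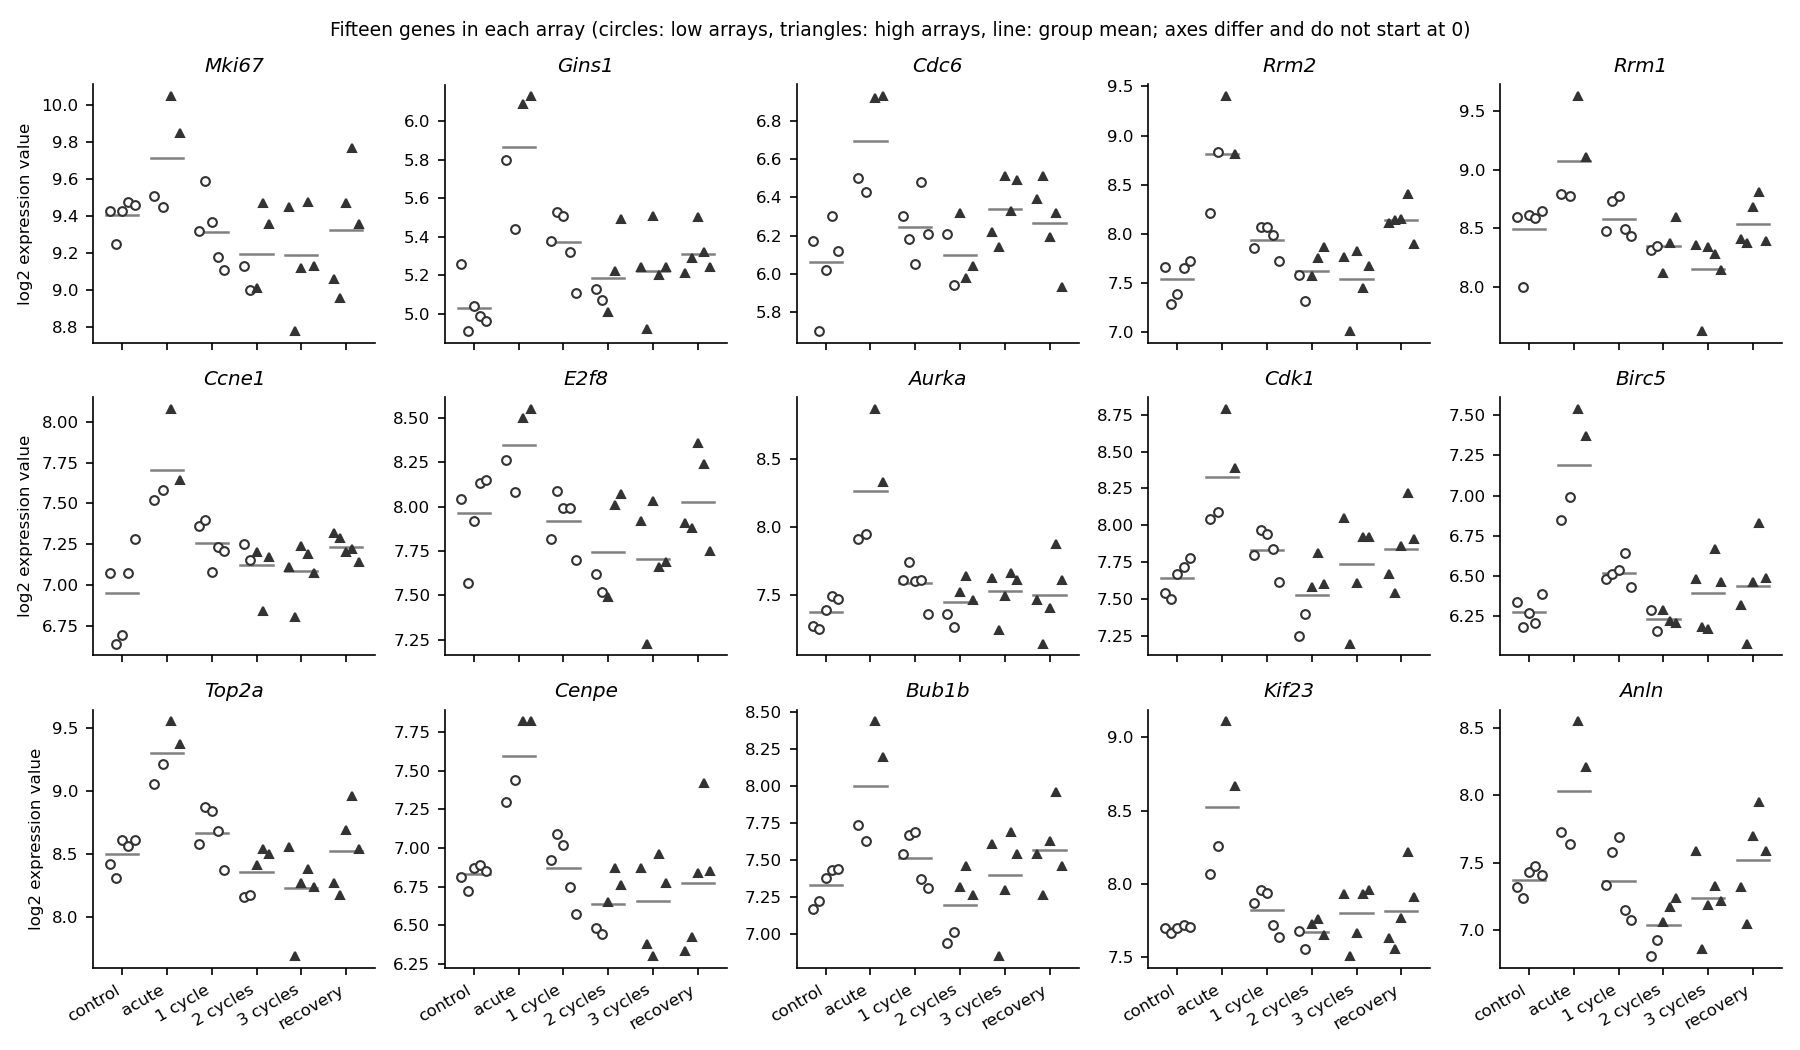
Log2 expression level (y axis) of the genes given array by array, on each of the 29 arrays by group (x axis). Circles are arrays of the low set, triangles arrays of the high set and lines group means. For Rrm2, Birc5 and Top2a the acute arrays stand above all controls, whereas for Mki67 they overlap.

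Kinetochore and spindle checkpoint genes rose in 5 of 8 cases. Cenpe, a kinetochore motor, had 6.81, 6.72, 6.87, 6.89 and 6.85 in controls and 7.30, 7.44, 7.82 and 7.82 in acute colitis. The controls lay close together and well below the acute arrays. The log2 fold change was 0.77 (SE 0.173, adjusted p = 0.00166). Bub1b, the checkpoint protein BubR1, had 7.17, 7.22, 7.38, 7.43 and 7.44 in controls and 7.74, 7.63, 8.44 and 8.20 in acute colitis. B2 and B3 lay a little above the controls and B4 and C3 clearly above them. This gave a log2 fold change of 0.67 (SE 0.166, adjusted p = 0.00362). The checkpoint kinase Bub1 (0.67), the activator of the anaphase promoting complex Cdc20 (0.62) and the kinetochore subunit Ndc80 (0.42) rose, with adjusted p between 0.00626 and 0.0298. Nuf2, the partner of Ndc80 (0.35), the large kinetochore protein Cenpf (0.31) and the checkpoint kinase Ttk (0.27) did not pass the test.

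Spindle motor and cytokinesis genes rose in 5 of 8 cases. Kif23, a motor of the central spindle, had 7.70, 7.67, 7.70, 7.72 and 7.71 in controls and 8.07, 8.26, 9.11 and 8.67 in acute colitis. The controls were nearly equal, and every acute array lay above them. On the log2 scale the rise was 0.82 (SE 0.147, adjusted p = 0.00015). Anln, anillin, a scaffold of the contractile ring, had 7.32, 7.24, 7.43, 7.48 and 7.41 in controls and 7.73, 7.64, 8.55 and 8.21 in acute colitis. The groups did not overlap, with B2 and B3 much nearer to the controls than B4 and C3. The log2 fold change was 0.66 (SE 0.177, adjusted p = 0.00722). Prc1, which bundles the central spindle (0.68), the spindle assembly factor Tpx2 (0.57) and the motor Kif20a (0.45) also rose, with adjusted p between 0.0261 and 0.0481. Racgap1, the partner of Kif23 (0.45, adjusted p = 0.0698), the motor Kif11 (0.29) and the microtubule binding protein Nusap1 (0.06, adjusted p = 0.875) did not pass the test.

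For 21 of the 45 genes all 4 acute arrays lay above all 5 controls, against 8.86% of all probe sets. Within the low set, which held B2, B3 and all controls, 10 genes rose (Gins1, Rrm2, Ccne1, Cdk1, Plk1, Aurka, Top2a, Birc5, Cenpe and Kif23), against 4.38% of all probe sets. The median of the 45 there was 0.23, and 42 were above 0. With the set of the array as a covariate 12 genes rose, with a median of 0.35, against 7.96% of all probe sets. Without B4, 13 genes rose, with a median of 0.40, against 8.55%. The part of the array set in the acute levels was not tested beyond these values.

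**Figure D3:**
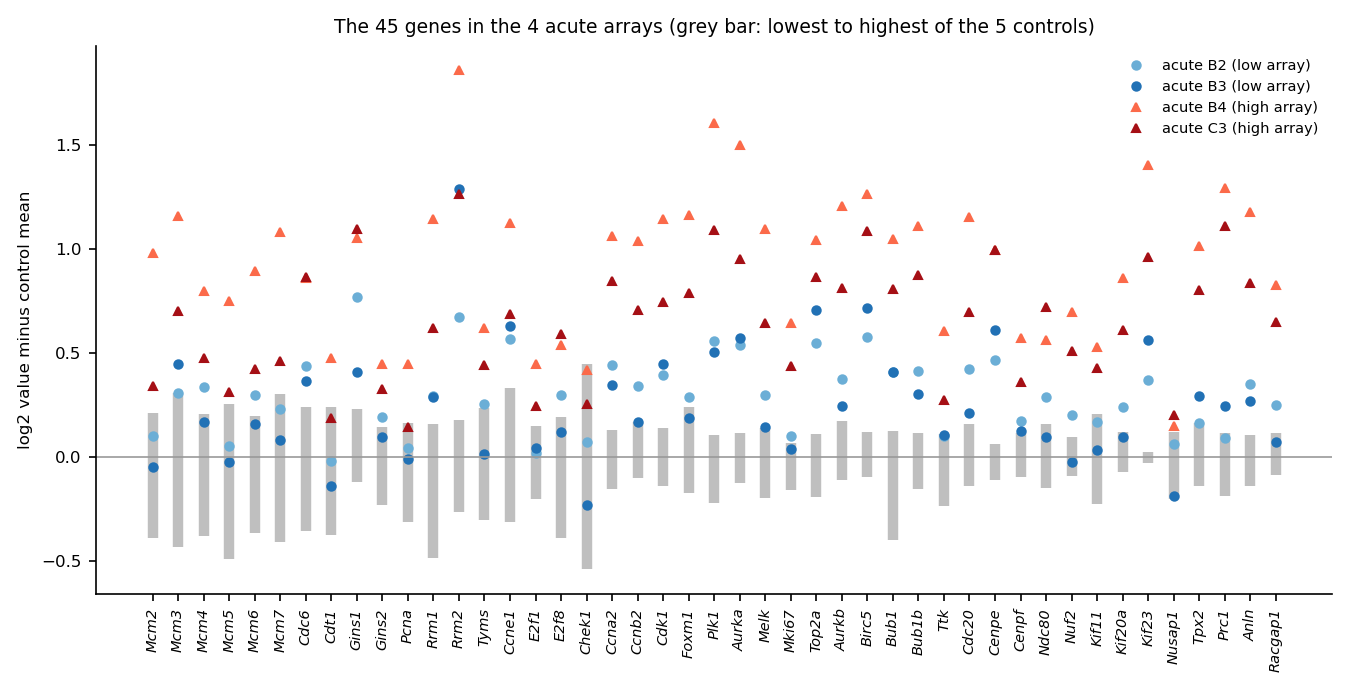
Log2 level minus the control mean (y axis) of each of the 45 genes (x axis) in the 4 acute arrays, with circles for the low-set arrays B2 and B3 and triangles for the high-set arrays B4 and C3. Grey bars run from the lowest to the highest control, and the triangles lie above the circles for most genes.

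Genes of the same pathways outside the 45 were read from lists. Of 89 other mitosis genes 53 rose and 1 fell in acute colitis, with a median of 0.43, led by Cks1b, a subunit of cyclin dependent kinases (1.21), the abscission protein Cep55 (1.01), the passenger complex subunit Cdca8 (0.92) and the centrosome kinase Nek2 (0.90). Of 59 other replication genes 22 rose and 3 fell, with a median of 0.26, and the highest were Dbf4 (0.79) and Cdc7 (0.74), which form the kinase that fires origins, and the nucleases Dna2 (0.77) and Fen1 (0.73). Within the low set 15 of the mitosis list and 4 of the replication list rose, against 4.38% of all probe sets, and without B4 they were 35 and 9, against 8.55%. The replication list was close to the share of all probe sets within the low set. Of 15 G1 cyclins and growth signals 5 rose and 3 fell, against 11.4% and 11.6% of all probe sets. The largest changes were rises of Ccnd1, cyclin D1 (0.87), E2f2 (0.87), Myc (0.61) and E2f4 (0.53). Within the low set 3 of the 15 rose and 4 fell, with a median of 0.02, against 4.38% and 4.9% of all probe sets. Of 17 cyclin dependent kinase inhibitors and quiescence genes 0 rose and 7 fell, with Gas1 (-0.73), Rbl2 (-0.55), Cdkn2b (-0.52) and Mxd4 (-0.51) the lowest, and 2 fell within the low set. Falls in this list were not limited to acute colitis. Against controls 0 fell after 1 cycle, 3 after 2 cycles, 6 after 3 cycles and 3 in recovery, where 1 rose. Of all probe sets 3.54%, 2.51%, 9.26% and 6.61% fell in these comparisons.

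Markers of several cell types moved in the same arrays, and their part in the levels above was not tested. All 10 smooth muscle markers fell, with a mean level of 9.49 in B2, 9.13 in B3, 8.85 in B4 and 8.56 in C3 against 10.14 to 10.54 in controls, and all 10 also fell within the low set. Of crypt stem cell markers 8 of 11 fell, with 7.22 to 7.81 in acute colitis against 7.79 to 7.99. Absorptive colonocyte markers fell in 4 of 10 cases and goblet cell markers in 3 of 8, the former with 10.53 in B2, 10.46 in B3, 8.73 in B4 and 9.77 in C3 against 10.79 to 11.0. Neutrophil markers rose in 9 of 12 cases (5.90 in B2, 8.38 in B3, 6.61 in B4 and 7.02 in C3 against 5.13 to 5.42), macrophage and monocyte markers in 9 of 11, with 1 lower, and T cell markers in 6 of 10. Within the low set 8 neutrophil, 3 macrophage and monocyte and 3 T cell markers rose. There 5 crypt stem cell markers fell and 1 rose, and 1 goblet cell marker fell. In that set 4 colonocyte markers fell, with a median of -0.07 against -0.95 over both sets. B3 had the highest neutrophil level and the lowest mean of the 45 genes among acute arrays. C3 was next to highest in both, and B2 had the lowest neutrophil level with a mean near that of B3. B4 had the lowest colonocyte level and the highest mean of the 45. General epithelial markers had 2 higher and 1 lower of 11, with 10.89 to 11.23 against 10.94 to 11.08. B cell markers had 0 called of 12, plasma cells 2 higher and 2 lower of 10, germinal centre B cells 3 higher and 1 lower of 9, squamous epithelium 1 higher of 11, and fibroblasts and endothelium 3 lower of 10 each. Crypt stem cell markers also fell against controls outside acute colitis. Of the 11, 1 fell after 1 cycle, 3 after 2 cycles, 5 after 3 cycles and 4 in recovery.

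**Figure D4:**
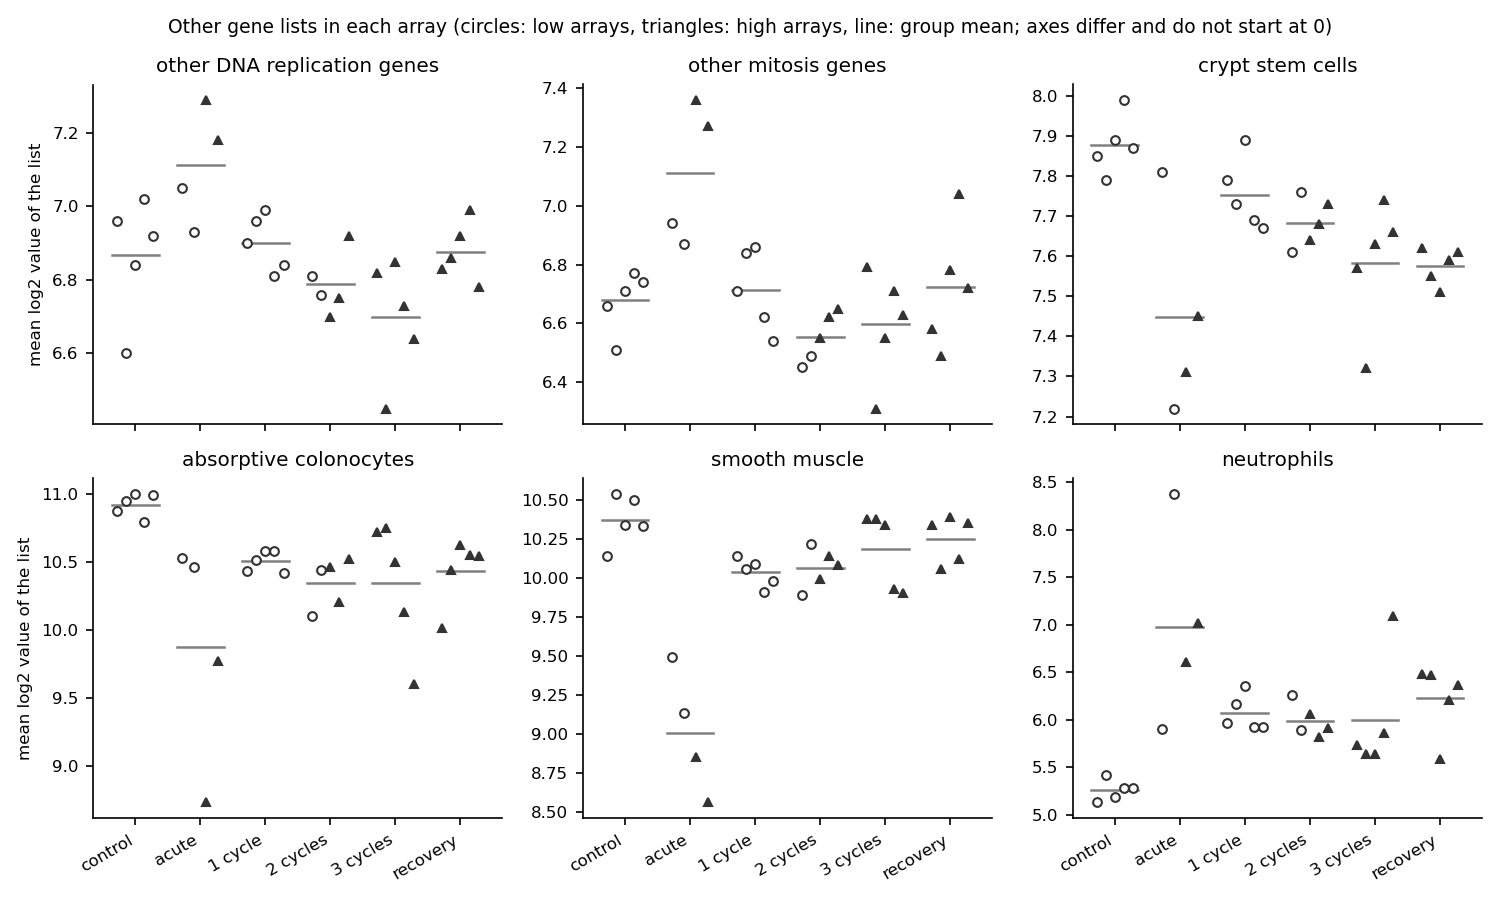
Mean log2 level (y axis) of the lists of other replication and mitosis genes and of 4 marker lists on each of the 29 arrays by group (x axis), with circles for low-set arrays, triangles for high-set arrays and lines for group means. Smooth muscle markers are lower in all 4 acute arrays than in all controls, and neutrophil markers are higher.

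The next comparison sets acute colitis against colitis that had gone through recovery, as the mean of the groups of 1, 2 and 3 cycles, with 15 arrays. In acute colitis 37 of the 45 genes were higher and 0 lower (limma, adjusted p under 0.05), against 6.6% higher and 5.66% lower of all probe sets. These were 25 of 27 mitosis genes and 12 of 18 replication genes. The median log2 difference was 0.56, against 0.03 over all probe sets, and all 45 were above 0. The largest were Rrm2 (1.11, SE 0.146, adjusted p = 1.09e-05) and Top2a (0.88, SE 0.13, adjusted p = 4.99e-05). Rrm2 alone passed a fold of 2, which 0.282% of all probe sets passed with a higher level. This comparison shares its acute arrays with the one above and is not independent of it.

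Mki67 was higher here by 0.48 (SE 0.131, adjusted p = 0.0145). Its levels were 9.32, 9.59, 9.37, 9.18 and 9.11 after 1 cycle, 9.13, 9.0, 9.01, 9.47 and 9.36 after 2 and 9.45, 8.78, 9.12, 9.48 and 9.13 after 3 cycles. J5 lay above the 2 lowest acute arrays, B3 and B2, E3 and G2 lay above B3 alone, F1 was level with B3, and the other arrays lay below. Rrm2 had 7.85, 8.07, 8.07, 7.99 and 7.72 after 1 cycle, 7.58, 7.32, 7.57, 7.75 and 7.87 after 2 and 7.76, 7.01, 7.82, 7.45 and 7.67 after 3 cycles. All 15 lay below the lowest acute array, and the 1-cycle arrays were the highest of them on average. Rrm1, higher in acute colitis by 0.72 (adjusted p = 0.000889), had 8.48, 8.73, 8.78, 8.49 and 8.43, 8.31, 8.35, 8.12, 8.37 and 8.60 and 8.36, 7.62, 8.34, 8.28 and 8.14 in the same order of groups. F3 was the lowest and K1 the highest, level with B3 to the second decimal.

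Of the licensing genes, Gins1 was higher in acute colitis by 0.61 (adjusted p = 0.000324), with 5.38, 5.53, 5.51, 5.32 and 5.11 after 1 cycle, 5.13, 5.07, 5.01, 5.22 and 5.49 after 2 and 5.24, 4.92, 5.51, 5.20 and 5.24 after 3 cycles. J5, K1, E4 and F5 overlapped with the acute B3. Cdc6 was higher by 0.47 (adjusted p = 0.00492), with 6.30, 6.18, 6.05, 6.48 and 6.21, 6.21, 5.94, 6.32, 5.98 and 6.04 and 6.22, 6.14, 6.51, 6.33 and 6.49. K2, F5 and G3 lay within the acute range. Mcm3 (0.47), Mcm4 (0.49), Mcm6 (0.46) and Gins2 (0.30) were also higher, with adjusted p between 0.00757 and 0.0317, and Mcm7 (0.43, adjusted p = 0.0509), Mcm2 (0.36), Mcm5 (0.33) and Cdt1 (0.20) did not pass the test.

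Ccne1 was higher by 0.55 (adjusted p = 0.000618), with 7.36, 7.40, 7.08, 7.23 and 7.21 after 1 cycle, 7.25, 7.15, 7.20, 6.84 and 7.17 after 2 and 7.11, 6.80, 7.24, 7.19 and 7.07 after 3 cycles. None reached the lowest acute array. E2f8 was higher by 0.56 (adjusted p = 0.00583), with 7.82, 8.09, 7.99, 7.99 and 7.70, 7.62, 7.52, 7.49, 8.01 and 8.07 and 7.92, 7.23, 8.03, 7.66 and 7.69. J5 alone lay above the acute B3, by little, and F3 was the lowest. Tyms (0.31, adjusted p = 0.0418) and Pcna (0.29, adjusted p = 0.0263) were higher, while E2f1 (0.21) and Chek1 (0.37) did not pass the test.

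Aurka was higher by 0.75 (adjusted p = 0.000187), with 7.61, 7.74, 7.60, 7.61 and 7.36 after 1 cycle, 7.36, 7.26, 7.52, 7.64 and 7.46 after 2 and 7.62, 7.24, 7.49, 7.66 and 7.61 after 3 cycles. All were below the acute arrays. Cdk1 was higher by 0.63 (adjusted p = 0.00213), with 7.80, 7.97, 7.94, 7.84 and 7.62, 7.25, 7.40, 7.58, 7.81 and 7.60 and 8.05, 7.20, 7.61, 7.92 and 7.92. F1 reached the level of the acute B2, and F3 and D4 were the lowest. Plk1 (0.85), Ccna2 (0.71), Melk (0.61), Foxm1 (0.59) and Ccnb2 (0.51) were higher, so that again all 7 genes of mitotic entry passed the test.

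Birc5 was higher by 0.81 (adjusted p = 1.16e-05), with 6.48, 6.51, 6.54, 6.64 and 6.43 after 1 cycle, 6.29, 6.16, 6.29, 6.22 and 6.21 after 2 and 6.48, 6.18, 6.17, 6.67 and 6.46 after 3 cycles. The 2-cycle arrays lay close together and low, and none of the 15 reached acute levels. Top2a had 8.58, 8.87, 8.84, 8.68 and 8.37, 8.16, 8.17, 8.41, 8.54 and 8.50 and 8.55, 7.69, 8.27, 8.38 and 8.24. The groups did not overlap with acute colitis, and F3 was far below the others. Aurkb was higher by 0.56 (adjusted p = 0.0127).

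Cenpe was higher by 0.87 (adjusted p = 0.000176), with 6.92, 7.09, 7.02, 6.75 and 6.57 after 1 cycle, 6.48, 6.44, 6.65, 6.87 and 6.76 after 2 and 6.87, 6.38, 6.30, 6.96 and 6.77 after 3 cycles. None reached the acute arrays. Bub1b was higher by 0.63 (adjusted p = 0.00271), with 7.54, 7.67, 7.69, 7.37 and 7.31, 6.94, 7.01, 7.32, 7.46 and 7.26 and 7.61, 6.85, 7.30, 7.69 and 7.54. J5, K1 and G2 lay between the acute B3 and B2. Bub1 (0.80), Cdc20 (0.58), Nuf2 (0.54), Cenpf (0.52) and Ndc80 (0.50) were also higher, and Ttk (0.37, adjusted p = 0.0737) did not pass the test.

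Kif23 was higher by 0.76 (adjusted p = 0.000138), with 7.87, 7.96, 7.94, 7.72 and 7.64 after 1 cycle, 7.68, 7.56, 7.73, 7.76 and 7.65 after 2 and 7.93, 7.51, 7.67, 7.93 and 7.96 after 3 cycles. All lay below the lowest acute array. Anln was higher by 0.82 (adjusted p = 0.000458), with 7.34, 7.58, 7.69, 7.15 and 7.08, 6.81, 6.93, 7.06, 7.17 and 7.24 and 7.59, 6.86, 7.19, 7.33 and 7.22. K1 alone exceeded the acute B3, and the 2-cycle arrays were the lowest as a group. Prc1 (0.65), Kif20a (0.61), Tpx2 (0.61), Racgap1 (0.56) and Kif11 (0.52) were also higher, and Nusap1 (0.35, adjusted p = 0.194) did not pass the test.

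For 12 of the 45 genes all acute arrays lay above all 15 arrays of the cycle groups (Rrm1, Rrm2, Ccne1, Ccna2, Plk1, Aurka, Top2a, Birc5, Bub1, Cenpe, Cenpf and Kif23), against 1.28% of all probe sets. Within the low set, where B2 and B3 met the 1-cycle arrays with D4 and D5, 7 genes were higher (Rrm2, Cdk1, Aurka, Top2a, Birc5, Cenpe and Kif23), against 0.332% of all probe sets. Within the high set, where B4 and C3 met E2, E3, E4 and the 3-cycle arrays, 39 were higher, with a median of 0.83, against 4.95% of all probe sets. With the set as a covariate 39 were higher, against 7.19% of all probe sets, and without B4 20 were higher, against 4.85%. Of the lists, 77 of 89 other mitosis genes and 29 of 59 other replication genes were higher and 0 of each lower. Smooth muscle markers were lower in 10 of 10 cases, neutrophil markers higher in 9 of 12 and B cell markers lower in 11 of 12, and the part of these cells in the comparison was not tested.

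**Figure D5:**
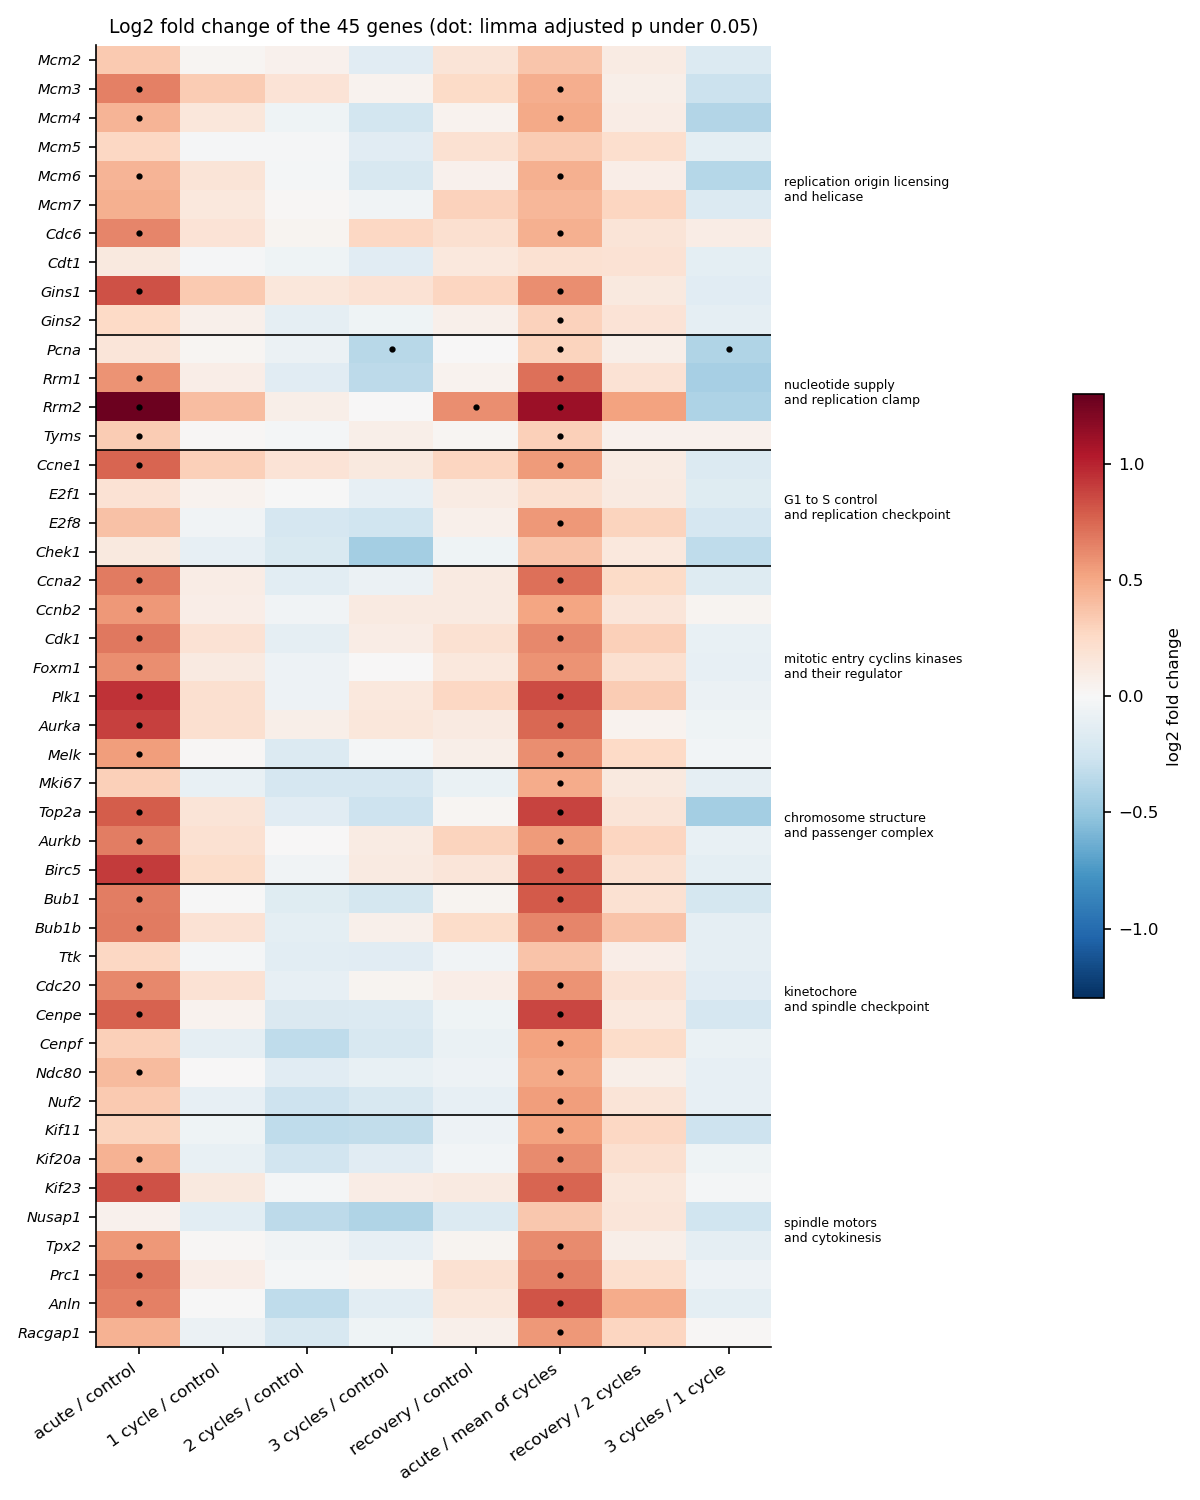
Heat map of the log2 fold change (colour) of each of the 45 genes (rows, in order of role) in the 8 comparisons (columns), with a dot where the limma adjusted p was under 0.05. Dots stand almost only in the columns of acute colitis, where values against controls run from 0.06 to 1.27, while those of 2 cycles against controls lie between -0.34 and 0.18.

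After 1 cycle with 2 weeks of recovery, 0 of the 45 genes rose or fell against controls (limma, adjusted p under 0.05), against 3.4% of all probe sets higher and 3.54% lower. At an unadjusted p under 0.05, 4 were higher and 0 lower, where all probe sets had 7.67% and 11.8%. The median of the 45 was 0.07, against -0.01 over all probe sets. Rrm2 had the largest value, 0.40 (adjusted p = 0.156), followed by Gins1 (0.34, adjusted p = 0.0959), Mcm3 (0.33) and Ccne1 (0.31). K3 was the lowest array of its group for 32 genes. Of the 89 other mitosis genes only Cks1b rose (0.56), a share below that of all probe sets. Of the 15 genes of the G1 list only Ccnd1 rose (0.37). At the same time 12 of 12 B cell markers rose, with a median of 1.59.

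After 2 cycles 0 genes rose or fell (limma, adjusted p under 0.05), against 3.08% of all probe sets higher and 2.51% lower. At an unadjusted p under 0.05, 0 were higher and 2 lower, where all probe sets had 8.5% and 10.6%. The log2 differences were below 0 for 36 genes, 25 of them among the 27 mitosis genes, with a median of -0.08 against -0.01 over all probe sets. Nusap1 was lowest (-0.34, adjusted p = 0.328) and Mcm3 highest (0.18). The means of the 45 were -0.19 in D4, -0.18 in D5 and -0.12 in E2, below all controls except A2, and 0.00 and 0.02 in E3 and E4. With the array set as a covariate the median was -0.31 and 2 genes were above 0, against -0.03 over all probe sets.

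After 3 cycles 0 genes rose and 1 fell, against 8.81% of all probe sets higher and 9.26% lower. The gene was Pcna, whose difference was -0.36 (SE 0.0986, adjusted p = 0.0115). A second probe set of Pcna gave -0.38 (adjusted p = 0.00961). With the array set as a covariate Pcna had -0.46 (SE 0.144, adjusted p = 0.13) and did not pass the test. Chek1 (-0.44, adjusted p = 0.0519) and Nusap1 (-0.39, adjusted p = 0.136) had the lowest values of the others, and Cdc6 the highest (0.27). The median of the 45 was -0.10, against 0.02 over all probe sets. F3 had a mean of -0.50 and was the lowest of all 29 arrays for 31 genes, while the other arrays of its group had means from -0.05 to 0.10. Without F3 the median was 0.01, and 23 genes were above 0. With the array set as a covariate it was -0.41, with 2 genes above 0, against -0.01 over all probe sets. All controls were in the low set and all 3-cycle arrays in the high set, so that this value takes the difference between the sets from acute colitis and 2 cycles. Of the other replication genes 15 of 59 fell, among them Pola1 (-0.59) and Prim1 (-0.58), subunits of the polymerase that starts new strands, the single strand binding subunit Rpa3 (-0.57) and Tipin (-0.49), a fork protection factor. They were 10 without F3, against 8.45% of all probe sets, and 1 with the array set as a covariate, against 0.315%. The median of the list was -0.15, and it was -0.10 without F3 and -0.27 with the covariate.

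Against 1 cycle, 3 cycles had 0 genes higher and 1 lower, against 1.12% of all probe sets higher and 0.648% lower. Pcna again was the gene (-0.39, SE 0.0986, adjusted p = 0.0396), and it did not pass the test in 8 of the 10 fits that left out 1 array of these groups, nor with the array set as a covariate (-0.49, adjusted p = 0.383). The log2 differences of 41 of the 45 genes were below 0, with a median of -0.13 against 0.03 over all probe sets, and the median was -0.02 without F3 and -0.49 with the covariate. Top2a (-0.44, adjusted p = 0.108) and Rrm1 (-0.43, adjusted p = 0.138) had the largest negative values. The 1-cycle arrays were all in the low set and the 3-cycle arrays all in the high set, so that cycle number and set cannot be told apart.

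After 2 cycles with 3 additional weeks of recovery, 1 gene rose and 0 fell against controls, against 6.05% of all probe sets higher and 6.61% lower. Rrm2 rose by 0.60 (SE 0.164, adjusted p = 0.0171), with 8.11, 8.14, 8.15, 8.40 and 7.90 in the recovery arrays. All 5 lay above all controls, and N2 reached into the acute range. With the array set as a covariate the difference was 0.18 (SE 0.215, adjusted p = 0.835) and did not pass the test, and all recovery arrays were in the high set and all controls in the low set. Rrm1 had 8.41, 8.37, 8.68, 8.81 and 8.39 and did not pass the test (0.04, adjusted p = 0.9). Over the 45 genes the median was 0.08, against -0.00 over all probe sets. N2 had a mean of 0.41 and was the highest of its group for 37 genes, and M3 with -0.11 was the lowest for 26. Without N2 the median was 0.01. With the array set as a covariate its sign turned, to -0.25 with 5 genes above 0, against -0.04 over all probe sets.

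The spread within the recovery group was wide for mitosis genes. Mki67 had 9.06, 8.96, 9.47, 9.77 and 9.36 and Top2a 8.27, 8.17, 8.69, 8.96 and 8.54, with N2 above the 2 lowest acute arrays of Mki67 and below that of Top2a. Cdk1 had 7.67, 7.54, 7.86, 8.22 and 7.91, Aurka 7.46, 7.14, 7.40, 7.87 and 7.61 and Birc5 6.32, 6.08, 6.46, 6.83 and 6.49. N2 was highest and M3 lowest in each of these. Cenpe had 6.33, 6.42, 6.84, 7.42 and 6.85, Bub1b 7.54, 7.26, 7.63, 7.96 and 7.46, Kif23 7.63, 7.56, 7.77, 8.22 and 7.91 and Anln 7.32, 7.05, 7.70, 7.95 and 7.59. N2 again was highest, and for all 4 of these it exceeded the lowest acute array. Of the replication genes, Gins1 had 5.21, 5.29, 5.50, 5.32 and 5.24, Cdc6 6.39, 6.51, 6.19, 6.32 and 5.93, Ccne1 7.32, 7.29, 7.20, 7.22 and 7.14 and E2f8 7.91, 7.88, 8.36, 8.24 and 7.75. N2 was not the highest for any of these 4, but it was the highest of its group for 10 of the 18 replication genes, among them Rrm1, Rrm2 and Pcna, and for all 27 mitosis genes. The mitosis list outside the 45 had 3 of 89 higher, led by Cks1b (0.53), a share below the 6.05% of all probe sets. Of the 15 genes of the G1 list Ccnd1 (0.47) and E2f4 (0.31) rose, and of 59 other replication genes 1 rose and 2 fell, against 6.61% of all probe sets lower. At the same time 10 of 11 squamous markers rose. Their mean level was 9.42 in M1, 9.10 in M3, 5.46 in M5, 7.70 in N2 and 9.12 in N3, against 5.35 to 5.55 in controls. M5 was thus within the range of the controls.

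Against 2 cycles alone, 0 genes were higher or lower after additional recovery (limma, adjusted p under 0.05), against 0.259% of all probe sets higher and 0.0197% lower. At an unadjusted p under 0.05, 4 were higher and 0 lower, where all probe sets had 4.7% and 4%. All 45 log2 differences were above 0, with a median of 0.18 against -0.00 over all probe sets. They ran from 0.04 for Aurka to 0.52 for Rrm2 (adjusted p = 0.273). Without N2 the median was 0.10 and 40 were above 0. It was 0.06 with 36 above 0 with the array set as a covariate, and 0.14 with 41 above 0 within the high set. The 5 comparisons with controls share the control arrays, and this one shares arrays with 2 of them.

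Replication and mitosis genes did not move by the same amount on every array. The mean of the replication genes minus that of the mitosis genes, each over its control mean, was -0.05 in B2, -0.07 in B3, -0.15 in B4 and -0.21 in C3. All acute arrays had the mitosis genes higher, but the controls themselves ran from -0.23 to 0.20. The largest positive values were 0.49 in M3, 0.38 in D4 and 0.36 in F5, where the mitosis genes had means of -0.31, -0.34 and -0.20 and the replication genes 0.18, 0.04 and 0.17. The recovery group spanned -0.22 in N2 to 0.49 in M3. These differences are a description with no test.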

How the data were processed

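Colon RNA of 29 mice was measured on 1 Affymetrix Mouse Gene ST array each. The values, which the authors deposited on the log2 scale for each probe set, had been normalized by RMA under R 2.12.2. Of these columns 0 were left unused, and nothing was normalized or filtered again. The annotation gave 1 gene symbol for 21789 of 35511 probe sets, several for 1621 and none for 12101. The number of arrays limits the precision. Each array is a separate mouse by its label.

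Groups were compared with limma 3.58.1 in R 4.3.3, with 1 mean for each of 6 groups, 8 contrasts, and Benjamini-Hochberg adjustment over all probe sets. Adjusted p under 0.05 made a call, and a fold above 2 was a further limit. The fit was tested on simulated data. The study's methods name limma and Benjamini-Hochberg adjustment without saying which groups were fitted together, and the fold limit is stated with its results. The genes, roles, lists and array sets were chosen with earlier results of these data known. Any of the 45 genes could be named, and those given array by array were Mki67 and, for each of 7 roles, the 2 of smallest p in the moderated F test. Each other gene is given at least in the comparison of its largest difference. Of other pathway lists up to 4 called genes of largest change were named, and marker lists were summarised. Promoter windows are from RefSeq, build GRCm38.p6. Alternatives were fits of the compared groups only, a random block for the letter of the label, weights for arrays, a robust prior with a trend, dim probe sets left out, single-symbol probe sets only, another quantile normalization, centring on array medians, the array set as a covariate or fits within a set, the mean of a gene's probe sets, the median in place of the mean of the 45 genes, and each array left out in turn.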

Additional observations from a re-analysis of the deposited data

Results flagged for a closer look

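Of 114 groups of values examined, 5 held an array far from the rest of its group, and chance gives about 1 in 20 such groups. In controls array A2 stood apart. Mki67 was 9.25 in A2 against 9.43 to 9.48 in the other controls, and Rrm1 was 8.0 against 8.59 to 8.65. The mean of the 45 genes was -0.22 in A2 against 0.01 to 0.10 in the others. Without A2, 22 genes rose in acute colitis (10.2% of all probe sets) in place of 29 (11.4%).

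Ccne1 was 6.84 in E3 against 7.15 to 7.25 in the other 2-cycle arrays. The mean of the 45 genes was -0.50 in F3 against -0.05 to 0.10 in the other 3-cycle arrays, and F3 also had the lowest crypt stem cell marker level of its group, 7.32.

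The effects of DSS differed between acute and cycle groups by a test of the difference itself, the same contrast as given above. Of the 45 genes 37 were higher in acute colitis than in the mean of the groups of 1, 2 and 3 cycles. Of all probe sets 6.6% were (limma, adjusted p under 0.05). The 37 became 7 within the low set (0.332%) and 3 with B4 and C3 left out (2.08%).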

How the results depend on the processing

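The 29 genes higher in acute colitis against controls (11.4% of all probe sets) became 12 with the array set as a covariate (7.96%), 10 within the low set (4.38%), and 7 with B4 and C3 left out together (5.34%), a setting added after seeing the data. The low set and the fit without B4 and C3 both compare B2 and B3 with the same controls and are not separate checks. The 29 were 13 to 34 with 1 array left out (8.55% to 12.9%), the lowest without B4. Rrm2, Ccne1, Aurka, Top2a, Birc5 and Kif23 were called in every setting run. Gins1 was called in every setting that kept it, as its probe set was among the dim ones left out in 1 setting. The 37 higher against the cycle groups (6.6%) became 7 within the low set (0.332%) and 3 with B4 and C3 left out (Rrm2, Top2a and Birc5, against 2.08%). With 1 array left out they were 20 to 41 (3.94% to 7.33%), the lowest count again without B4. For 1 cycle, 2 genes were higher with only the compared groups (4.46% of all probe sets), 4 with array weights (5.58%) and 1 within the low set (3.08%). With 1 array left out 0 to 1 were higher (2.28% to 3.1%). For 2 cycles, 2 were lower with only the compared groups (3.37%). For 3 cycles, 2 were lower with the letter of the label as a block (11.4%), dim probe sets left out (17.6%) or single-symbol probe sets (11.7%). They were also 2 with another quantile normalization (9.17%) or centring (9.4%). With the covariate 0 were lower (0.315%), and 1 to 3 with 1 array left out (6.15% to 8.95%). For recovery, 2 were higher with only the compared groups (7.21%) or array weights (8.87%). With the covariate 0 were higher (0.296%), and 1 to 2 with 1 array left out (3.56% to 5.97%). For 3 cycles against 1 cycle, 0 were lower with only the compared groups (0.304%), single-symbol probe sets (0.216%), another quantile normalization (0.879%) or the covariate (0%). With 1 array left out 0 to 1 were lower (0.0817% to 1.1%).

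Signs turned for genes that were not called. Against controls in acute colitis Nusap1 was -0.0744 with the covariate and -0.0637 within the low set, where Cdt1 was -0.0806 and Chek1 -0.0812. These 3 values were by design the same with B4 and C3 left out, since both settings compare B2 and B3 with the same controls. With 1 array left out Chek1 ran from -0.00742, without A2, to 0.248, without B3. Against the cycle groups within the low set Mcm2 was -0.0475, Cdt1 -0.0264 and E2f1 -0.00759, and Cdt1 was -0.00798 with B4 and C3 left out. The cause of these shifts was not tested. No paired analysis was possible because the groups share no replicate labels.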
